A study of Mus musculus with 6 samples.

Results

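A set of 10 genes that mark pericytes and smooth muscle cells was followed in mouse tissue around engineered cartilage: Acta2, Tagln, Myh11, Cnn1, Myl9, Lmod1, Des, Rgs5, Cspg4 and Mcam. The genes were taken as a named list and found by exact symbol. All 10 were among the 48440 genes of the count table, and all 10 were among the 15257 genes that had enough reads to be tested.

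Pericytes and smooth muscle cells are the mural cells of blood vessels: pericytes lie on the endothelium of capillaries and small venules, and smooth muscle cells surround arteries and veins. Smooth muscle cells build a contractile apparatus from smooth muscle actin and myosin and the proteins that bind them, and serum response factor, acting through a short DNA element called the CArG box, drives many of these genes. Several of the same contractile genes are also used by myofibroblasts, the contractile fibroblasts of healing tissue and of capsules around implants.

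Engineered cartilage was grown from rabbit bone marrow mesenchymal stem cells on a polymer scaffold (BEC), wrapped in an electrospun PCL/collagen membrane and placed under the skin of young adult male BALB/c nude mice. Axitinib, an inhibitor of the VEGF receptor tyrosine kinases, was added at 0% or 3% of the combined weight of PCL and collagen, and murine tissue entangled with BEC was taken for RNA sequencing at week 12. The groups were 0%-Axitinib and 3%-Axitinib, with 3 samples each. The comparison asks how the mural genes of this tissue differ when the membrane carries the drug. Both groups shared the strain, the membrane, BEC and the time point, and the labels give no age or genotype for single animals beyond the strain. Nude mice lack a thymus and most T cells but keep B cells, natural killer cells and macrophages. Sample labels describe the controls as untreated, and they were read as 0%-Axitinib because the series' design text and treatment protocol name that group. The study placed a pair of constructs in each mouse and the mouse behind each sample is not given, so samples of a group may not be independent, and p-values measure the spread between these samples.

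Reads counted on genes numbered 17761968, 16716411 and 18005908 in 0%-Axitinib replicates 1, 2 and 3, and 9225518, 11686084 and 18403795 in 3%-Axitinib replicates 1, 2 and 3. Reads that mapped nowhere on the mouse genome made up 5.47%, 3.84% and 14.9% of the 0%-Axitinib libraries and 48.4%, 29.2% and 16.8% of the 3%-Axitinib libraries. The 3%-Axitinib samples thus had the higher unmapped shares, and replicate 1 of that group had the fewest reads on genes. The source of the unmapped reads, and whether rabbit reads were counted on mouse genes, was not tested. Some features set single libraries apart before any comparison: 3%-Axitinib replicates 1 and 3 held much skeletal muscle RNA and 0%-Axitinib replicate 1 a smaller amount, and 0%-Axitinib replicate 2 held skin keratin RNA.

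Levels are given as CPM, counts scaled to the size and composition of each library. A gene is called lower or higher where it met the study's own criterion, a fold change of at least 1.5 with P no greater than 0.05. This P was read here as unadjusted, and it came from the quasi-likelihood test of edgeR. The calls are therefore not the study's own list of changed genes, which was shorter and held more higher than lower genes. Fold changes are those of the 3%-Axitinib group over the 0%-Axitinib group. In bulk tissue, fewer cells of a type and less RNA per cell cannot be told apart.

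Rgs5 and Mcam were lower in the 3%-Axitinib group, by 4.64-fold and 3.31-fold, and for each of them the groups did not overlap. The 6 contractile genes overlapped between the groups, and none of them was called. Des was called higher, from a large excess in 3%-Axitinib replicates 1 and 3 and a level in replicate 2 within the 0%-Axitinib range. Cspg4, the remaining pericyte marker, overlapped between the groups and was not called.

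In counts, 2 of the 10 genes were called lower, where 11.7% of all tested genes were, and 1 of the 10 was called higher, where 9.54% were. The groups did not overlap in 2 of the 10 genes, both lower in the 3%-Axitinib group, a direction in which 16.5% of all tested genes separated. No gene of the 10 separated in the higher direction, in which 14.7% of all tested genes did. On a list of 10 genes these counts are near the background, so the results are those of single genes and not of the list. The median log2 fold change of the 10 genes was 0.39, beside -0.03 for all tested genes, and leaving out 1 library moved it to as little as 0.0061 (3%-Axitinib replicate 1 out) and as much as 0.94 (0%-Axitinib replicate 1 out).

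With p-values adjusted by Benjamini-Hochberg across the tested genes, edgeR put 0 of the 10 genes at or below 0.05. Unadjusted, 3 of the 10 were at or below 0.05, as were 3585 of all 15257 tested genes. Of all tested genes 1 passed the adjustment, a share of 0.00655%. DESeq2's Wald test put 3 of the 10 below the adjusted threshold (Rgs5, Mcam and Des), where 1960 of 15257 genes passed, and limma-voom put 0 there. Without 0%-Axitinib replicate 3, edgeR gave 2 genes, Mcam with an adjusted p of 0.0379 and Rgs5 with 0.046, in a fit where 1252 of 15690 genes passed. Without 3%-Axitinib replicate 2 it gave 1 gene, Des with 0.0405, where 58 of 15940 passed. Over all alternatives the adjusted p ran from 3.8e-05 to 0.714 for Rgs5, from 3.4e-06 to 0.714 for Mcam and from 0.0018 to 0.921 for Des, the upper ends being those without 3%-Axitinib replicates 1 and 3, which leaves a single 3%-Axitinib sample.

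**Figure D1:**
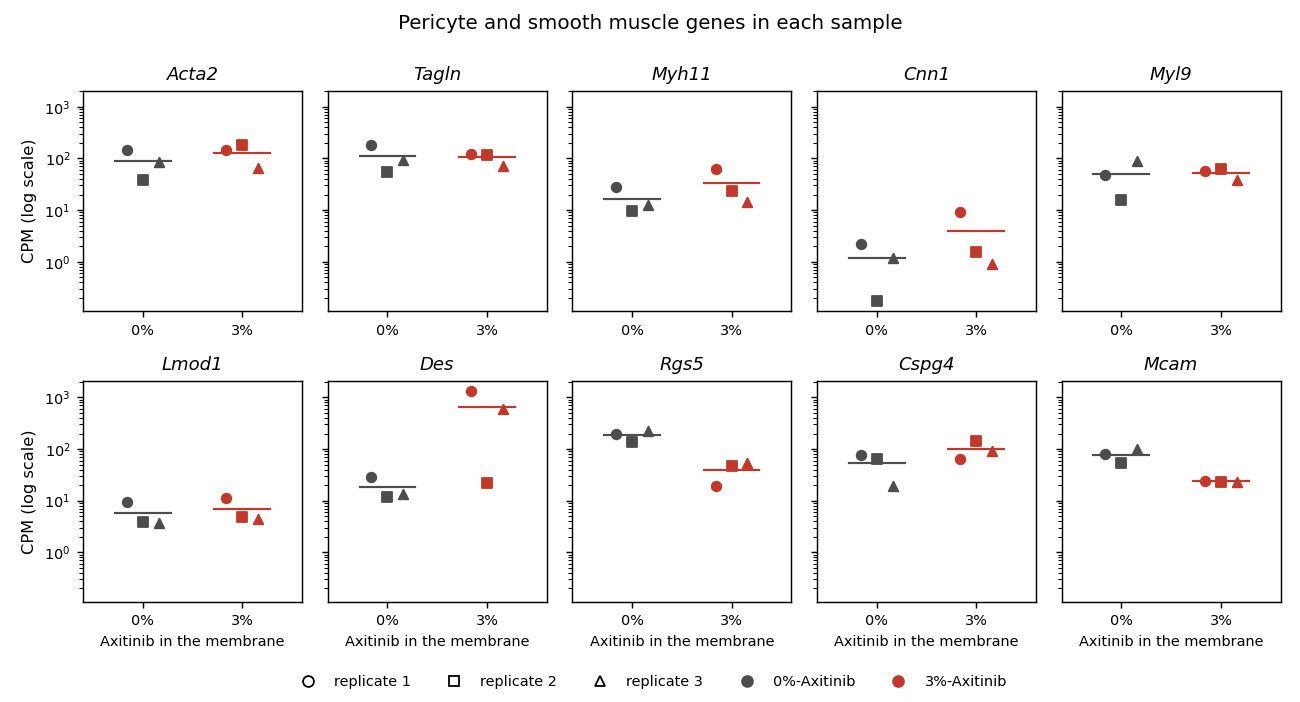
Level of each of the 10 genes in each sample, in CPM on a log scale, with 0%-Axitinib samples in grey, 3%-Axitinib samples in red, a symbol per replicate and a bar at the group mean (n = 3). Rgs5 and Mcam separate the groups, while Des is high in 3%-Axitinib replicates 1 and 3 and stands at 21.7 CPM in replicate 2.

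Rgs5 encodes a regulator of G protein signalling that shortens signals from vasoactive receptors and is among the most used transcript markers of pericytes. It lies on chromosome 1 (GRCm38, 169655501 to 169695813, plus strand). It stood at 199, 134 and 222 CPM in the 0%-Axitinib samples and at 19.3, 46.0 and 54.2 CPM in the 3%-Axitinib samples. The groups did not overlap, and the lowest 0%-Axitinib sample was 2.48 times the highest 3%-Axitinib sample, while samples within a group differed by up to 1.65 times and 2.81 times. The means were 185 ± 45.3 and 39.8 ± 18.2 CPM (SD, n = 3 each). In log2 terms the change was -2.22 (standard error 0.42, 95% interval -3.20 to -1.23, adjusted p = 0.0965). Its call held without any 1 of the 6 libraries, with log2 fold changes from -2.50 to -1.88, and without 3%-Axitinib replicates 1 and 3 the log2 fold change was -2.02. The lowest sample, 3%-Axitinib replicate 1, was also the library with the most unmapped reads.

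Mcam encodes an adhesion molecule of the immunoglobulin superfamily, carried by pericytes and smooth muscle cells and also by endothelial cells. It lies on chromosome 9 (GRCm38, 44134469 to 44142727, plus strand). It stood at 80.5, 53.6 and 99.8 CPM in the 0%-Axitinib samples and at 24.6, 23.3 and 22.9 CPM in the 3%-Axitinib samples. The 3%-Axitinib samples were nearly equal, the highest being 1.07 times the lowest. All of them lay below the 0%-Axitinib samples, of which the lowest was 2.18 times the highest 3%-Axitinib sample. This gave a log2 fold change of -1.73 (standard error 0.25, 95% interval -2.33 to -1.13, adjusted p = 0.0965). Leaving out 1 library at a time gave -1.94 to -1.51 and kept the call each time, and without 3%-Axitinib replicates 1 and 3 the log2 fold change was -1.75.

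Cspg4 encodes the NG2 proteoglycan, a surface marker of pericytes that glial precursors, Schwann cells and chondrocytes also make. It was measured at 77.6, 64.1 and 19.0 CPM in the 0%-Axitinib samples and at 65.4, 146 and 90.3 CPM in the 3%-Axitinib samples. The groups overlapped, with the lowest value in 0%-Axitinib replicate 3 and the highest in 3%-Axitinib replicate 2. For Cspg4 the estimate was 0.91 in log2 fold change (standard error 0.53, 95% interval -0.35 to 2.17, adjusted p = 0.335), so a change in either direction could not be called. With 1 library left out the estimate ran from 0.50 (0%-Axitinib replicate 3 out) to 1.27 (0%-Axitinib replicate 1 out), with no call. The genes were also compared within samples through ratios.

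A ratio of 2 genes in the same sample does not depend on the scaling between libraries. The 6 ratios used here were chosen after the values had been seen, and an exact permutation test of 3 against 3 samples cannot give a p below 0.1. Rgs5 stood at 2.56, 2.09 and 11.7 times Cspg4 (a ratio of CPM) in the 0%-Axitinib samples and at 0.295, 0.316 and 0.600 times in the 3%-Axitinib samples. The ratio is not corrected for exon length, and its groups did not overlap. The difference of the mean log2 ratio was -3.38 (exact permutation p = 0.1, 0.12 after adjustment over the 6 ratios).

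Against Acta2 the direction was the same. Rgs5 was 1.38, 3.46 and 2.60 times Acta2 in the 0%-Axitinib samples and 0.134, 0.256 and 0.840 times in the 3%-Axitinib samples. Mcam was 0.559, 1.38 and 1.17 times Acta2 in the 0%-Axitinib samples and 0.170, 0.129 and 0.355 times in the 3%-Axitinib samples. Neither ratio overlapped between the groups. In mean log2 ratio to Acta2 the groups differed by -2.92 for Rgs5 and by -2.29 for Mcam (exact permutation p = 0.1, 0.12 after adjustment, for each). Leaving out 1 library moved these differences between -3.65 and -2.32 for Rgs5 and between -2.70 and -1.98 for Mcam, and that of Rgs5 to Cspg4 between -3.84 and -2.60. Without 3%-Axitinib replicate 3 the Rgs5 to Acta2 difference was the -3.65, without 3%-Axitinib replicate 1 it was the -2.32, and without 0%-Axitinib replicate 3 the Rgs5 to Cspg4 difference was the -2.60.

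The 6 contractile genes belong to the thin filament, the thick filament and the proteins that bind them. Acta2, smooth muscle alpha-actin, stood at 144, 38.8 and 85.2 CPM in the 0%-Axitinib samples and at 144, 179.9 and 64.5 CPM in the 3%-Axitinib samples. Both groups spanned a wide range, with the lowest value in 0%-Axitinib replicate 2 and the highest in 3%-Axitinib replicate 2. For Acta2 the estimate was 0.53 in log2 fold change (standard error 0.54, 95% interval -0.74 to 1.81, adjusted p = 0.569). Actin genes are similar in coding sequence, and any reads they share could make single levels uncertain. The skeletal actin gene Acta1 stood at 3913, 0.091 and 1849 CPM in the 3%-Axitinib samples, and its part in the Acta2 level was not tested.

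Tagln, which encodes the actin-binding protein transgelin, was at 181, 54.7 and 92.8 CPM in the 0%-Axitinib samples and at 124, 119 and 70.3 CPM in the 3%-Axitinib samples. All 3%-Axitinib values lay within the range of the 0%-Axitinib group. The log2 fold change was -0.07 (95% interval -1.14 to 1.00, adjusted p = 0.936), and its sign turned when 0%-Axitinib replicate 1 (0.49), 3%-Axitinib replicate 3 (0.14) or both 3%-Axitinib replicates 1 and 3 (0.093) were left out, and under limma-voom (0.083). An annotated antisense transcript that is not in the count table covers 62.4% of the exon bases of Tagln, and Pcsk7 on the opposite strand, which is in the table, shares 5.43% of them. Since the strand setting of the counting is not given, reads of these genes cannot be told apart there.

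Cnn1, which encodes calponin and is among the later markers of smooth muscle differentiation, was the least abundant of the 10 genes. It had 42, 3 and 22 reads in the 0%-Axitinib samples and 83, 17 and 16 reads in the 3%-Axitinib samples, or 2.19, 0.174 and 1.19 CPM against 9.10, 1.55 and 0.925 CPM. One sample, 3%-Axitinib replicate 1, stood above the others, and the groups overlapped. The log2 fold change of 1.67 had a 95% interval of -0.91 to 4.25 (adjusted p = 0.381), and it was 0.040 without 3%-Axitinib replicate 1.

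Myh11, the smooth muscle myosin heavy chain and the most lineage-restricted of the contractile genes, was at 27.9, 9.71 and 12.6 CPM in the 0%-Axitinib samples and at 63.9, 23.7 and 14.3 CPM in the 3%-Axitinib samples. The groups overlapped, and 3%-Axitinib replicate 1 was highest. Its log2 fold change was 1.01 (95% interval -0.48 to 2.51, adjusted p = 0.362). Without 3%-Axitinib replicate 1 it was 0.17.

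Myl9, a regulatory light chain of smooth muscle myosin, was at 47.7, 15.98 and 89.1 CPM in the 0%-Axitinib samples and at 58.0, 61.8 and 37.7 CPM in the 3%-Axitinib samples. The 3%-Axitinib values lay inside the 0%-Axitinib range. The log2 fold change of 0.039 (95% interval -1.28 to 1.36, adjusted p = 0.971) had no stable sign: it was -0.087 on library totals, and -0.0094, -0.39, -0.028 and -0.086 without 0%-Axitinib replicate 1, 0%-Axitinib replicate 2, 3%-Axitinib replicate 1 and 3%-Axitinib replicate 2. Lmod1, which encodes leiomodin, a nucleator of actin filaments in smooth muscle, was at 9.49, 3.89 and 3.78 CPM in the 0%-Axitinib samples and at 11.3, 4.82 and 4.45 CPM in the 3%-Axitinib samples. The groups overlapped, and replicate 1 was highest in each. Its log2 fold change was 0.25 (95% interval -1.04 to 1.55, adjusted p = 0.804), turning to -0.31 without 3%-Axitinib replicate 1 and to -0.27 without 3%-Axitinib replicates 1 and 3.

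Certain libraries were low or high in most of the contractile genes. In the 0%-Axitinib group, replicate 2 had the lowest level of 5 of the 6 genes and replicate 1 the highest level of 5. In the 3%-Axitinib group, replicate 3 had the lowest level of all 6 and replicate 1 the highest of 4. The mean of log2(CPM + 0.5) over the 6 genes, relative to the 0%-Axitinib mean, was 0.76, -0.88 and 0.12 in the 0%-Axitinib samples and 1.26, 0.51 and -0.20 in the 3%-Axitinib samples. These ranges overlap widely. The 4 skin keratin genes of the epithelial list summed to 3.55, 782 and 3.40 CPM in the 0%-Axitinib samples and to 6.03, 6.73 and 3.76 CPM in the 3%-Axitinib samples, Krt1 being the most abundant and at 0 reads in 4 of the 6 samples, so the library with the lowest contractile values was the one with keratin RNA. Of these 4 genes, 1 had enough reads to be tested and was called lower, beside 11.7% of all tested genes. The list had 2 lower calls without 0%-Axitinib replicate 1 or 3 and 0 without any other library, with DESeq2's Wald test or with limma-voom, and the part of skin in the contractile values was not tested.

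Without 0%-Axitinib replicate 2, the log2 fold change of Acta2 was 0.17, that of Tagln -0.40 and that of Myl9 -0.39, and without 0%-Axitinib replicate 1 they were 1.05, 0.49 and -0.0094. None of the 6 genes met the criterion in either fit. The intervals of Acta2, Tagln, Myl9 and Lmod1 all include changes of 1.5-fold in both directions, so a moderate change of these genes was neither shown nor excluded.

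**Figure D2:**
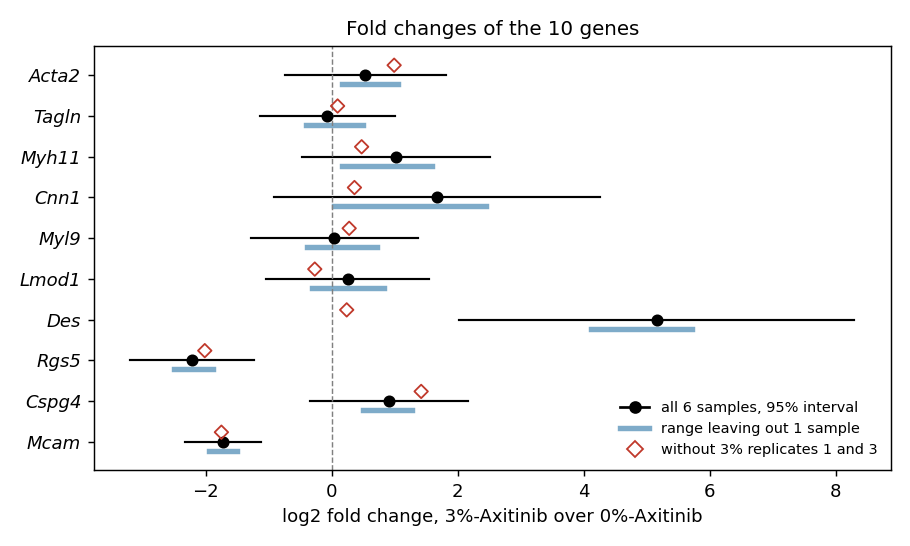
Log2 fold change of each of the 10 genes, 3%-Axitinib over 0%-Axitinib, as points with 95% intervals from all 6 samples, blue bars for the range when 1 sample is left out, and red diamonds for the value without 3%-Axitinib replicates 1 and 3. Rgs5 and Mcam stay below 0 in each of these, Des drops from 5.16 to 0.24 at the diamond, and Myl9, which turns to -0.087 on library totals, Tagln and Lmod1 cross 0.

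Des encodes desmin, the intermediate filament of smooth, skeletal and cardiac muscle, and is also found in pericytes. It lies on chromosome 1 (GRCm38, 75360329 to 75368579, plus strand). It was at 29.3, 11.7 and 13.3 CPM in the 0%-Axitinib samples and at 1316, 21.7 and 607 CPM in the 3%-Axitinib samples. Replicates 1 and 3 of the 3%-Axitinib group stood far above every other sample, while replicate 2 lay within the 0%-Axitinib range, so the groups overlapped. In log2 fold change Des reached 5.16 (standard error 1.33, 95% interval 2.03 to 8.30, adjusted p = 0.106), which met the criterion. Leaving out 3%-Axitinib replicate 1 gave 4.12, and leaving out 3%-Axitinib replicate 2 gave 5.72.

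Genes of skeletal muscle fibres moved with Des. Of a list of 20 such genes, 17 of the 19 tested were called higher, beside 9.54% of all tested genes. The list summed to 187, 23.9 and 26.4 CPM in the 0%-Axitinib samples and to 17277, 28.2 and 9725 CPM in the 3%-Axitinib samples. The order of the 3%-Axitinib samples was that of Des, and 0%-Axitinib replicate 1, the highest control in this sum, was also the highest control in Des. Acta1 was its most abundant gene. In 3%-Axitinib replicate 2, Ckm, Myh4, Tcap and Pvalb had 0 reads, which allows up to 0.273 CPM each, counting error alone being considered. The count of 17 became 11 without 0%-Axitinib replicate 3, and limma-voom called 1 of these genes higher. Over all tested genes, higher calls in these fits numbered 2274 of 15690 and 1467 of 15257. The part of skeletal muscle in the Des result was not tested. Without 3%-Axitinib replicates 1 and 3, a choice made after the values were seen, the log2 fold change of Des was 0.24 (unadjusted p = 0.741 in edgeR's test), and 0 of the 10 genes were called higher. These libraries had both the most muscle RNA and the only high Des values, so the fit restates the sample values and gives no evidence on their source. It has a single 3%-Axitinib sample, assumed to vary as the 0%-Axitinib samples do.

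**Figure D3:**
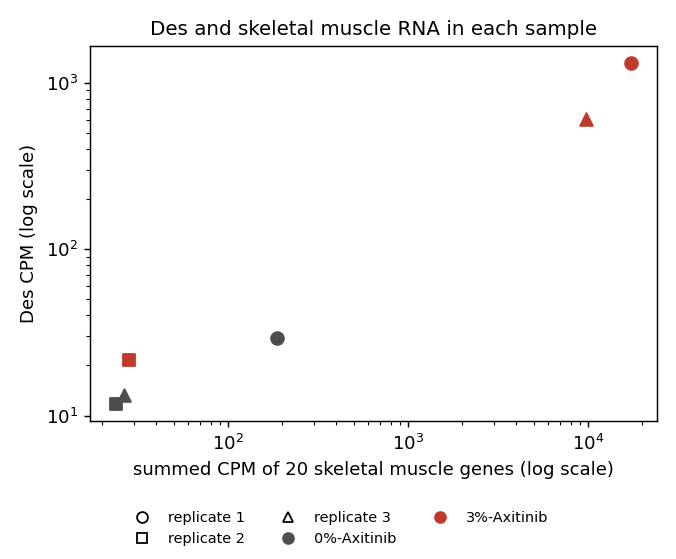
Des level in each sample against the summed level of 20 skeletal muscle genes, both in CPM on log scales, with 0%-Axitinib samples in grey and 3%-Axitinib samples in red. The samples with 17277 and 9725 CPM of muscle genes are those with 1316 and 607 CPM of Des, and the other 4 samples lie at or below 29.3 CPM of Des.

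Levels of different genes are compared per kilobase of exon. In the 0%-Axitinib group the highest mean levels were those of Tagln at 55.1 ± 32.7, Myl9 at 43.8 ± 31.6, Acta2 at 40.7 ± 24.003 and Rgs5 at 40.7 ± 9.96 CPM per kilobase (SD, n = 3), whose spreads overlapped. Mcam followed at 23.3 ± 6.94, with a spread that overlapped those of Tagln, Myl9 and Acta2. Des at 4.82 ± 2.60, Cspg4 at 4.49 ± 2.57, Myh11 at 2.21 ± 1.29, Lmod1 at 1.45 ± 0.827 and Cnn1 at 0.433 ± 0.368 CPM per kilobase were lower.

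In the 3%-Axitinib group, Acta2 at 59.0 ± 26.9, Tagln at 52.5 ± 14.9 and Myl9 at 45.2 ± 11.1 CPM per kilobase overlapped in their spreads, while Rgs5 stood at 8.76 ± 4.01, Cspg4 at 8.42 ± 3.45 and Mcam at 7.04 ± 0.261. The spreads of these last 3 genes overlapped. Des had a mean of 173 ± 173 CPM per kilobase from 2 high samples and a low one. Myh11, Lmod1 and Cnn1 had the lowest means, at 4.47 ± 3.47, 1.74 ± 0.975 and 1.41 ± 1.66. The rank of Myh11 did not hold in every sample. In 3%-Axitinib replicate 1 it was at 8.41, above Mcam (7.33), Cspg4 (5.48) and Rgs5 (4.25).

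Other genes used as pericyte markers were read as a list of 14, all of which were tested. Of these, 6 were called lower and 1 higher, beside 11.7% and 9.54% of all tested genes, and their median log2 fold change was -1.04, beside -0.03 for all tested genes. Their summed level overlapped between the groups, at 1905, 2649 and 829.7 CPM in the 0%-Axitinib samples against 1031, 1227 and 1278 CPM in the 3%-Axitinib samples. Of the genes not called, Cox4i2 (1.24), Vtn (0.30), Pdgfrb and Higd1b (0.049) had positive log2 fold changes. Leaving out 1 library gave 5 to 7 lower calls. Over all tested genes, lower calls in these fits ran from 1308 of 15878 (3%-Axitinib replicate 1 out) to 2148 of 15690 (0%-Axitinib replicate 3 out). Higher calls became 2 without 0%-Axitinib replicate 3, where 2274 of 15690 tested genes were called higher.

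Kcnj8 and Abcc9 encode the channel and the sulfonylurea receptor subunit of the same potassium channel, which opens when ATP is low. Kcnj8 was at 17.2, 14.9 and 25.9 CPM in the 0%-Axitinib samples and at 10.7, 5.91 and 8.32 CPM in the 3%-Axitinib samples. Abcc9 was at 30.6, 25.9 and 31.9 CPM against 12.8, 3.37 and 7.80 CPM. Neither gene overlapped between the groups, with log2 fold changes of -1.22 (adjusted p = 0.116) and -1.89 (adjusted p = 0.0989), with standard errors of 0.34 and 0.46. Both were still called without 3%-Axitinib replicates 1 and 3, at -1.72 and -3.14.

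Notch3, the Notch receptor of mural cells, was at 96.0, 58.9 and 44.8 CPM in the 0%-Axitinib samples and at 11.5, 28.9 and 22.9 CPM in the 3%-Axitinib samples, without overlap. Its log2 fold change was -1.66 with a standard error of 0.41 (adjusted p = 0.101). Gucy1a1 and Gucy1b1, the subunits of soluble guanylate cyclase, the nitric oxide receptor of mural cells, had log2 fold changes of -1.21 and -1.71, with standard errors of 0.50 and 0.48 (adjusted p = 0.206 and 0.12). Steap4, a metalloreductase, had one of -1.17, standard error 0.32 (adjusted p = 0.117). None of these 4 genes overlapped between the groups. The call of Gucy1a1 was lost without 0%-Axitinib replicate 1 (-0.72), 3%-Axitinib replicate 1 (-0.95) or 3%-Axitinib replicate 3 (-1.12), and without 3%-Axitinib replicates 1 and 3 all 4 lost it, with log2 fold changes of -1.22 for Notch3, -0.60 for Gucy1a1, -1.34 for Gucy1b1 and -0.69 for Steap4.

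Ndufa4l2, a mitochondrial protein gene induced by low oxygen and abundant in pericytes of several tissues, went the other way. It was at 43.9, 43.1 and 19.96 CPM in the 0%-Axitinib samples and at 146, 241 and 91.2 CPM in the 3%-Axitinib samples. All 3%-Axitinib samples lay above the 0%-Axitinib samples, with a log2 fold change of 2.16, a standard error of 0.45 and an adjusted p of 0.0965. It was 2.74 without 3%-Axitinib replicates 1 and 3. The most abundant genes of the list were not called: Anpep, an aminopeptidase shared with fibroblasts and myeloid cells, had a log2 fold change of -0.90, and -1.33 with a call without 0%-Axitinib replicate 3. For Anpep it was -0.33, with no call, without 0%-Axitinib replicate 2. Pdgfrb, the PDGF receptor of mural cells and fibroblasts, was at 186, 148 and 126 CPM against 116, 209 and 166 CPM, with overlap. Its log2 fold change of 0.093 became -0.048 on library totals, -0.032 without 0%-Axitinib replicate 3 and -0.12 without 3%-Axitinib replicate 2.

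Endothelial genes moved in the direction of Rgs5 and Mcam. Of 12 endothelial genes, 10 were called lower, beside 11.7% of all tested genes, and 0 higher, the list's median log2 fold change was -1.46, and its summed level was 1105, 796 and 1027 CPM in the 0%-Axitinib samples and only 393, 459 and 526 CPM in the 3%-Axitinib samples. The sums did not overlap. Its most abundant gene was Eng, which was not called, and no gene of the list was at 0 in all samples. Leaving out 1 library gave 8 to 10 lower calls, in fits where 1308 of 15878 to 2148 of 15690 tested genes were called lower. The part of this endothelial decrease in the Rgs5 and Mcam results was not tested, and Mcam is itself made by endothelial cells.

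Rgs5 and Acta2 were also set against the endothelial gene Pecam1 in the same sample. The size of such a ratio depends on the endothelial gene chosen, and Pecam1 had a log2 fold change of -1.61. Within the endothelial list, Cdh5 (-2.37) and Cldn5 (-2.38) fell further than Rgs5 (-2.22). Kdr (-2.16) was close to Rgs5, and all other genes of that list fell less. Ratios of Rgs5 to these genes were not tested. Rgs5 was 0.794, 0.941 and 0.909 times Pecam1 in the 0%-Axitinib samples and 0.380, 0.605 and 0.663 times in the 3%-Axitinib samples. The difference in mean log2 ratio was -0.72 (exact permutation p = 0.1, 0.12 after adjustment), and this p is the smallest that any ratio without overlap can give. Acta2 was 0.575, 0.272 and 0.3496 times Pecam1 in the 0%-Axitinib samples and 2.84, 2.36 and 0.790 times in the 3%-Axitinib samples. That difference was 2.20 (exact permutation p = 0.1, 0.12 after adjustment), again without overlap. The Rgs5 difference was between -0.87 and -0.47 when 1 library was left out, and the Acta2 difference between 1.85 and 2.77, the last being the value without 3%-Axitinib replicate 3.

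Set against the fibroblast gene Col1a1, Acta2 gave a different picture. The ratio was 0.0202, 0.0120 and 0.0270 in the 0%-Axitinib samples and 0.0214, 0.00588 and 0.00692 in the 3%-Axitinib samples. The groups overlapped through 3%-Axitinib replicate 1, and the mean log2 ratio differed by -0.97 (exact permutation p = 0.3). Leaving out 3%-Axitinib replicate 1 moved it to -1.55, and leaving out 3%-Axitinib replicate 2 moved it to -0.62. Col1a1 itself was at 7122, 3225 and 3159 CPM with 0%-Axitinib against 6755, 30598 and 9322 CPM with 3%-Axitinib, and the cells that made Acta2 were not told apart into smooth muscle cells and myofibroblasts.

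**Figure D4:**
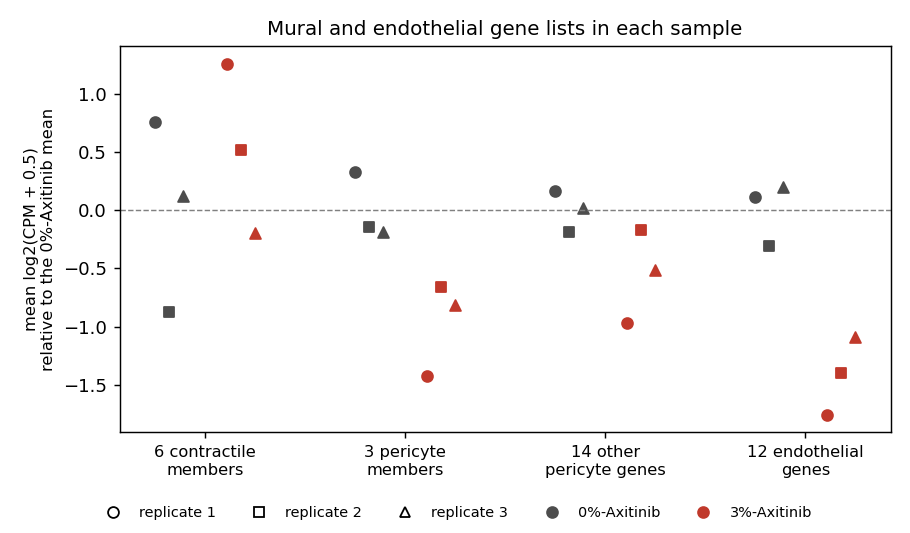
Mean of log2(CPM + 0.5) over 6 contractile genes and 3 pericyte markers of the set, 14 other pericyte genes and 12 endothelial genes in each sample, relative to the 0%-Axitinib mean, with 0%-Axitinib samples in grey and 3%-Axitinib samples in red. Contractile means and those of the 14 other pericyte genes overlap between the groups, and endothelial means stand at -1.76, -1.39 and -1.09 in the 3%-Axitinib samples, below all 0%-Axitinib samples.

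Other genes of the smooth muscle contractile apparatus were read as a list of 20, of which 18 were tested. Of these, 3 were called lower and 3 higher, with a median log2 fold change of -0.05. Beside the 11.7% and 9.54% of all tested genes these counts are near the background, so they are no result about the list, and the called genes are given as single genes. Mylk, the myosin light chain kinase that triggers smooth muscle contraction, was at 54.2, 37.5 and 56.4 CPM in the 0%-Axitinib samples and at 19.6, 24.5 and 15.9 CPM in the 3%-Axitinib samples. The groups did not overlap, its log2 fold change was -1.31 with a standard error of 0.25 (adjusted p = 0.0965), and the call held without any 1 library (-1.48 to -1.17). Without 3%-Axitinib replicates 1 and 3 the call was lost (-1.02). Endothelial cells also make Mylk.

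The other lower calls were Aoc3 and Pgm5. Aoc3, an amine oxidase on the surface of smooth muscle cells and adipocytes, had a log2 fold change of -1.15, with overlap, and was no longer called without 0%-Axitinib replicate 1 (-0.85), 0%-Axitinib replicate 2 (-1.10), 3%-Axitinib replicate 1 (-1.04) or 3%-Axitinib replicate 3 (-0.96). Pgm5, a protein of muscle adhesion sites, had one of -0.77, without overlap, and was called without 0%-Axitinib replicate 3 but not without any other library (-0.83 to -0.59), nor under limma-voom (-0.72). With 0%-Axitinib replicate 1 or 2 left out, 1 gene of the list was called lower, and with 3%-Axitinib replicates 1 and 3 left out, 0 were.

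The higher calls were Tpm1, Tpm2 and Synm, which skeletal muscle also makes. In each of them every 3%-Axitinib sample was above the controls, a direction in which 14.7% of all tested genes separated. Tpm2, a tropomyosin, was at 46.3, 19.6 and 54.9 CPM in the 0%-Axitinib samples and at 1485, 79.9 and 763 CPM in the 3%-Axitinib samples. The groups did not overlap, and replicates 1 and 3 were highest, as for Des. Its log2 fold change was 4.27, or 3.40 without 3%-Axitinib replicate 1, and 0.98 without 3%-Axitinib replicates 1 and 3, where it was not called. Tpm1, another tropomyosin, was at 222, 198 and 245 CPM against 795, 368 and 487 CPM, with log2 fold changes of 1.31 in all samples and 0.72 without 3%-Axitinib replicates 1 and 3, the call being lost. Synm, a partner of desmin, was at 27.1, 11.2 and 8.63 CPM in the 0%-Axitinib samples and at 51.1, 37.1 and 28.3 CPM in the 3%-Axitinib samples. Its groups were thus separated by a small margin, between 0%-Axitinib replicate 1 and 3%-Axitinib replicate 3. Synm had a log2 fold change of 1.31, which was 1.96 without 0%-Axitinib replicate 1. Its call was lost when any of 0%-Axitinib replicate 2 (1.11), 0%-Axitinib replicate 3 (1.01), 3%-Axitinib replicate 1 (1.05) and 3%-Axitinib replicate 2 (1.33) was left out, as it was with 3%-Axitinib replicates 1 and 3 left out together (1.22). Flna, the actin crosslinker filamin A and the most abundant gene of the list, had a log2 fold change of -0.068, which turned to 0.045 when 0%-Axitinib replicate 3 was left out and to 0.0026 when 3%-Axitinib replicate 1 was.

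Of 9 regulators of mural cells, 8 were tested, 1 was called lower and 0 higher, which beside 11.7% of all tested genes is no result about regulators. With 0%-Axitinib replicate 3 left out there were 2 lower calls, with 3%-Axitinib replicate 1 left out 1 (another gene than Mrtfb), and otherwise 0. Higher calls became 2 with 0%-Axitinib replicate 1 left out. Myocd, the cofactor of serum response factor that is restricted to smooth and cardiac muscle, was too scarce to be tested, at no more than 0.273 CPM in any sample. Mrtfb, a related cofactor of wider use, was called lower at a log2 fold change of -0.93 with a standard error of 0.39 (adjusted p = 0.208). It kept the call without 0%-Axitinib replicate 3 but lost it without any other library (-1.14 to -0.65) and under limma-voom (-0.81). Mrtfa and Klf4, the most abundant of the list, were not called. The log2 fold change of Mrtfa was -0.53, and -0.66 with a call on library totals and without 0%-Axitinib replicate 3. With 0%-Axitinib replicate 2 left out, the log2 fold change of Mrtfa was -0.30, with no call. That of Klf4, a factor that represses contractile genes, was 0.65, 1.15 with a call without 0%-Axitinib replicate 1, and -0.15 without 3%-Axitinib replicates 1 and 3.

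The CArG box was searched for in promoters of the RefSeq table, each 300 bases long, from 250 bases before to 50 bases after the start of a gene, because serum response factor acts on contractile genes through it. It consists of CC, then 6 bases that are each A or T, then GG, and reads the same way on both strands. The table held promoters of 8 of the 10 genes, of which 1 had a match, while 1.81% of the 27025 genes of the table did. Of the 32851 promoters, 1.63% had a match. The match was in Myl9, 161 bases before the start of the gene, on chr2:156775263-156775352 (GRCm38.p6, plus strand), shown with the box in capitals and 40 bases on either side:
Myl9: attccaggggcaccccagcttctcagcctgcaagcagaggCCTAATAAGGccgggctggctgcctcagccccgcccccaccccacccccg
A match describes letters only. The promoters of Acta2, Cnn1, Lmod1, Des, Rgs5, Cspg4 and Mcam did not hold these letters in this window, which says nothing of the factor.

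Scaling to library totals alone moved the median of all tested genes by -0.129 on the log2 scale, and raised the share of lower calls among all called genes from 55.1% to 71.2%. Rgs5, Mcam and Des kept their calls there, with log2 fold changes of -2.36 and -1.86 for the first pair. Annotated antisense genes also share exon bases with Des (5.86%) and Mcam (0.507%), and reads of these pairs cannot be told apart either.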

How the data were processed

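The values deposited by the authors are a raw count for each gene, made from poly(A)-selected libraries by filtering reads with fastp and mapping them to mm10 with STAR (2.5.2b in the submitters' processing notes). The annotation release and strand setting are not given in the sources used here. The 4 lines that name no gene (19.1% to 57.8% of a library) were kept out of totals and tests. The members and lists were chosen with earlier results of these data known. All genes with enough reads (filterByExpr, minimum count 10, minimum total 15) were fitted with edgeR 4.0.16 in R 4.3.3 (TMM, quasi-likelihood, group as the only term, Benjamini-Hochberg over 15257 genes), after a check on simulated data. Standard errors were derived from the F statistic. CPM used TMM-scaled totals, and exon lengths and positions came from GENCODE vM21. Alternatives were DESeq2 1.42.0, limma-voom (limma 3.58.1), other scalings and filters, the replicate number as a block, and each sample left out. Named were the 10 genes, and of the contractile, regulator and pericyte lists every called gene and the 2 most abundant; marker lists were endothelial, skeletal muscle, fibroblast, chondrocyte, Schwann cell, adipocyte and skin epithelium. Figures were drawn with matplotlib 3.10.9.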

Additional observations from a re-analysis of the deposited data

How the results depend on the processing

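The 10 genes gave 149 log2 fold changes under the alternatives, of which 135 kept their direction and side of the criterion. Lower calls stayed at 2 of the 10 genes under every alternative, and higher calls at 1 except as follows. With the replicate block they were 2 (Myh11 at 0.89 was added), and without 3%-Axitinib replicates 1 and 3, added after the values were seen, they were 0. The lone 3%-Axitinib sample of that fit was assumed to vary like the other group. At an adjusted p no greater than 0.05 stood 3 genes with DESeq2's Wald test, 0 with limma-voom, and 0 to 2 when 1 sample was left out. The median log2 fold change was between 0.0061 and 0.94 when 1 sample was left out and 0.26 on library totals. Same-numbered samples had correlations of 0.18, -0.12 and -0.17 in their deviations from the group means. Unlike-numbered samples had correlations from -0.22 to 0.21. The main fit used no pairing by number, and these correlations cannot show whether samples were paired in the experiment, because differences in tissue content also enter them.

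Signs turned for genes that were not called, and the cause was not tested. On library totals Myl9 was at -0.087 and Pdgfrb at -0.048. Tagln was at 0.083 with limma-voom, 0.042 with the replicate block, and 0.093 without 3%-Axitinib replicates 1 and 3, where Lmod1 was at -0.27 and Klf4 at -0.15. When 1 sample was left out, Tagln ranged from -0.40 to 0.49, Myl9 from -0.39 to 0.72, Lmod1 from -0.31 to 0.82, Flna from -0.17 to 0.045 and Pdgfrb from -0.12 to 0.29. Calls lost with the replicate block were those of Gucy1a1 (-1.19), Pgm5 (-0.72) and Mrtfb (-0.84). Calls over all genes numbered 1785 lower and 1456 higher, against 2448 and 989 on library totals. When 1 sample was left out, they ran from 1308 to 2148 lower and from 1055 to 2274 higher. Of all tested genes, 1 passed the adjustment, against 1960 with DESeq2's Wald test. Cnn1 did not pass the filter of at least 10 counts in every sample, so it has no value there. Cnn1 had as few as 3 reads in a library.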

Other observations

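Marker lists of other cell types that share genes with the set were also read. Of 12 fibroblast genes, 4 were called higher, beside 9.54% of all tested genes, and 0 lower, with overlapping summed levels of 26622, 13558 and 10602 CPM with 0%-Axitinib against 23665, 73443 and 25916 CPM with 3%-Axitinib, Col1a1 being the most abundant. The higher calls were 2 on library totals, with the replicate block, without 0%-Axitinib replicate 2 or without 3%-Axitinib replicate 2, the sample with the highest sum. Of 8 chondrocyte genes, a cell type that also makes Cspg4, 7 were tested and 5 were called higher, beside 9.54% of all tested genes. The count was 3 without 3%-Axitinib replicate 2. The chondrocyte genes summed to 359, 212 and 165 CPM against 308, 1235 and 474 CPM, with overlap, Comp being the most abundant.

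Of 6 Schwann cell genes, 1 was called higher, which beside 9.54% of all tested genes is no result about the list, with summed levels of 1090.5, 266 and 172 CPM against 1288.5, 1288.4 and 1124 CPM and Mbp the most abundant. That count was 0 on library totals, 3 with DESeq2's Wald test, and 4 with limma-voom and with the replicate block. It ran from 0 to 4 when 1 library was left out, being 4 with 0%-Axitinib replicate 1 left out, 2 with 0%-Axitinib replicate 3 left out and 0 in the other cases. The Schwann cell sum was high in 0%-Axitinib replicate 1 as well and lower in 0%-Axitinib replicates 2 and 3. These sums did not overlap, as 1090.5 CPM in 0%-Axitinib replicate 1 lay below 1124 CPM in 3%-Axitinib replicate 3. Of 5 adipocyte genes, 2 were called lower, beside 11.7% of all tested genes. The count was 5 without 3%-Axitinib replicate 1 and with limma-voom. The list summed to 602, 584 and 776 CPM against 294, 286 and 261 CPM, and Fabp4, which endothelial cells also make, was the most abundant. None of these lists had a gene at 0 in all samples, and their part in the levels of Cspg4, Acta2 or Aoc3 was not tested.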
